A study of Caenorhabditis elegans with 2 samples.

Results

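The genes described here are unclassified non-coding RNA genes that had a reproducible SCRT-1-eGFP binding site at their start. The summit of that site lay more than 100 bp from the starts of tRNA, snoRNA, snRNA and rRNA genes, in a few cases only just. A gene was included when Ensembl gives it the biotype ncRNA, when the summit of a site lay within 100 bp of its start, and when that summit lay more than 100 bp from every tRNA, snoRNA, snRNA and rRNA gene start. The RNA component genes rpr-1 and mrpr-1 and the genes named srpr- were left out. The rule found 80 of the 7764 nuclear ncRNA genes, at 70 of the 1211 sites. Because the position of the binding sites chose these genes, their number, signal and distances are a description and carry no test.

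The data come from chromatin immunoprecipitation and sequencing (ChIP-seq), in which DNA bound by a protein is pulled down with an antibody and sequenced. An anti-GFP antibody was used on whole early Caenorhabditis elegans embryos, 2 h old and obtained by egg bleaching. The single group, with 2 biological replicates, was strain OP802, which carries the transgene wgIs802, a scrt-1 construct tagged with TY1, EGFP and 3xFLAG together with unc-119(+), in an unc-119(tm4063) background. The signal is therefore that of a tagged transgene product averaged over all cells of the embryo, there was no second condition to compare. A control experiment named in the labels was not analysed here.

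SCRT-1 belongs to the Scratch branch of the Snail family of zinc finger proteins. Factors of that family bind the E-box CAGGTG. Small structured RNAs are made from compact genes with their own promoters. In tRNA genes, RNA polymerase III is recruited by an A box and a B box that lie inside the transcribed part. In many other small RNA genes of the worm the promoter elements lie upstream of the start instead. The ncRNA biotype of the annotation gathers transcripts that have been assigned to none of the named classes. RefSeq calls each of the 80 genes an unclassified non-coding RNA, as it does 7762 of all 7764 nuclear ncRNA genes. The description therefore does not set the 80 genes apart, and no function is given to them here.

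The sequences of 10 of the 12 strongest of these sites are printed because several of them shared short stretches of sequence. Each line gives the 121 bases centred on the summit, on the strand of the B box word where there is one and otherwise on that of the gene, read from the RefSeq genome sequence of WBcel235, the assembly that ce11 names. In the lines of F36H1.17, T28D6.10, C14F11.14, K10H10.11, ZK816.8 and T22B2.9, capitals mark matches to a B box word (GTTCNANNC) and, where the same window holds it, an A box word (TNGNNNAGTGG), both described with the results on sequence. In the lines of W01D2.9 and F08G2.13, capitals mark the 2 runs of 11 bases that both sites held. Nothing is marked in the lines of WBGene00199919 and F52D10.7.
F36H1.17: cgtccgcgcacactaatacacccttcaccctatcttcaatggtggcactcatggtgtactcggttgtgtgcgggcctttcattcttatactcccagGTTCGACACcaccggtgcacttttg
T28D6.10, T28D6.13, T28D6.15: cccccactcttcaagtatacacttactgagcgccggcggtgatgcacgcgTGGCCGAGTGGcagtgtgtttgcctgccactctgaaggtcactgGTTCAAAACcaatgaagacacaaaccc
C14F11.14: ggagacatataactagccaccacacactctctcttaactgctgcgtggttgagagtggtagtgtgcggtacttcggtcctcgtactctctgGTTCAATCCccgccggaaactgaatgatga
WBGene00199919: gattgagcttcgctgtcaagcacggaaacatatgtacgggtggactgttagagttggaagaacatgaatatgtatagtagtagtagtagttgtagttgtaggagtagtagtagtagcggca
K10H10.11: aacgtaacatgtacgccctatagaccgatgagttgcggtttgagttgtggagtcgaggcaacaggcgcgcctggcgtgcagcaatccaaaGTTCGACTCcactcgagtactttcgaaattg
ZK816.8, ZK816.9: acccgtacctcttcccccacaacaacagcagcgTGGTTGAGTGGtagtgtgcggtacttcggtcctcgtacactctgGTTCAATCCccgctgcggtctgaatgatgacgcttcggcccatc
W01D2.9: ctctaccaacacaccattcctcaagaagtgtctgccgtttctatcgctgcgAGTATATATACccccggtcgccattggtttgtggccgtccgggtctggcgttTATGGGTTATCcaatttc
F08G2.13: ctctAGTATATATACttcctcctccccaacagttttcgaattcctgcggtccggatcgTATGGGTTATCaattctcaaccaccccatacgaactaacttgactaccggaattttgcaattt
T22B2.9, T22B2.12: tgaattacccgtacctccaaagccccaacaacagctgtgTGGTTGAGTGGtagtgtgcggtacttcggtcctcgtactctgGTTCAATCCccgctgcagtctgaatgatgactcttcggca
F52D10.7: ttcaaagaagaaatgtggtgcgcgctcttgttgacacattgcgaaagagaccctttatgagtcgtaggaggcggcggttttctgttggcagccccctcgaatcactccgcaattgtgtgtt

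The window of F36H1.17 is chrIV:11026139-11026259 (minus strand). That of the overlapping genes T28D6.10, T28D6.13 and T28D6.15 is chrIII:11371404-11371524 (minus strand). The window of C14F11.14 is chrX:6207809-6207929 (plus strand), and that of WBGene00199919 is chrIV:14033945-14034065 (minus strand). On chromosome II, the window of K10H10.11 is chrII:14496971-14497091 (plus strand), that of W01D2.9 is chrII:14804711-14804831 (plus strand) and that of F08G2.13 is chrII:13834440-13834560 (minus strand). On the X chromosome, the window of ZK816.8 and ZK816.9 is chrX:3348018-3348138 (plus strand), that of T22B2.9 and T22B2.12 is chrX:3914453-3914573 (minus strand) and that of F52D10.7 is chrX:11605889-11606009 (minus strand).

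The first question was how often ncRNA genes had a site at all. The 80 genes were 1.03% of the nuclear ncRNA genes. Counting every site, 229 ncRNA genes (2.95%) had a summit within 100 bp of their start. Of those, 142 were left out because the summit lay within 100 bp of a small RNA gene start. A tRNA gene was the nearest small RNA gene for 134 of the 142, a snoRNA gene for 7 and a snRNA gene for 1, and 132 of the 142 ncRNA genes overlapped a small RNA gene on the opposite strand. A further 7 were left out by name.

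Other annotated classes differed widely by the same measure. A summit lay within 100 bp of the start of 252 of 612 tRNA genes (41.2%), 58 of 346 snoRNA genes (16.8%), 12 of 129 snRNA genes (9.3%), 3 of 261 miRNA genes (1.15%), 78 of 19973 protein-coding genes (0.391%), 8 of 2128 pseudogenes (0.376%) and 1 of 15363 piRNA genes (0.00651%). No site lay that close to any of 194 lincRNA genes or 100 antisense RNA genes. Among the 7309 ncRNA genes whose start lies more than 200 bp from every small RNA gene start, 75 had a site under the rule, again 1.03%.

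Members shared sites. Of the 70 sites, 61 had 1 of the 80 genes, 8 had 2 and 1 had 3, so the genes are not independent of each other. The site shared by 3 genes was that of T28D6.10, T28D6.13 and T28D6.15. Of the 80 genes, 32 (40%) overlapped another ncRNA gene. The share over all 7764 ncRNA genes is not given here, so this count does not set the 80 genes apart. The names F22D3.7 and C54G4.13 each stand for a pair of annotated genes that cover the same bases on opposite strands.

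The genes lay on all 6 nuclear chromosomes. The X chromosome held 29 of the 80 (36.2%), and it also holds 32.5% of all ncRNA genes. Chromosome III held 14 (17.5%, against 9.84% of all ncRNA genes) and chromosome V held 5 (6.25%, against 19.6%). Chromosomes I and II held 11 each and chromosome IV held 10.

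Length did not set these genes apart. Their median length was 140.0 bp (quartiles 108 and 186 bp), and the median of all 7764 nuclear ncRNA genes was also 140.0 bp (quartiles 95 and 165 bp). The shortest was C14F5.9 with 48 bp, on the minus strand of chromosome X at chrX:7965631-7965678. The longest was F16A11.5 with 2454 bp, on the plus strand at chrI:9373371-9375824, followed by W05H9.3 with 1512 bp and W03D2.15 with 729 bp. The plot of gene lengths shows both distributions over the same range, with 20% of the 80 genes between 120 and 140 bp.

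**Figure D1:**
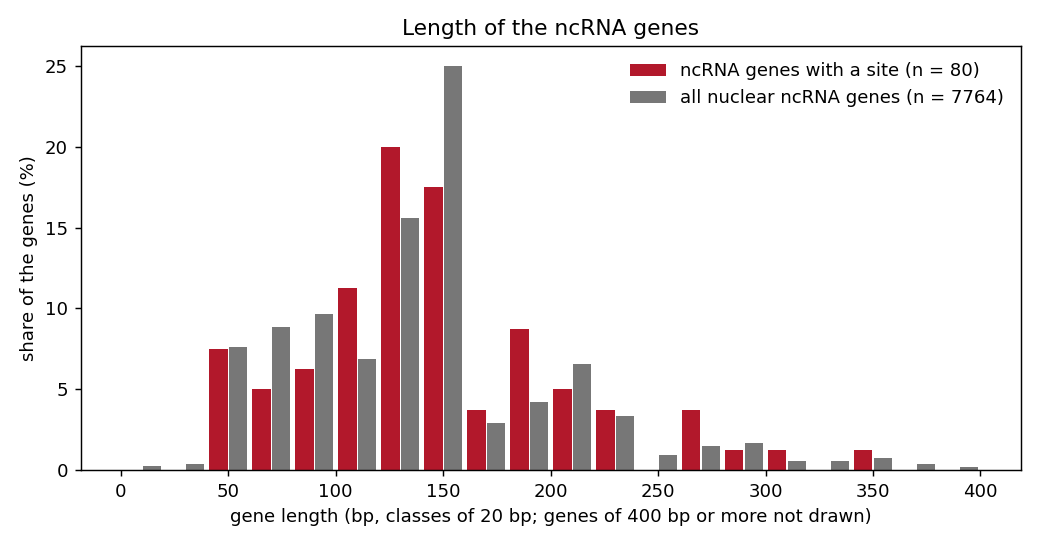
Length of the ncRNA genes with a site (left bar of each pair, n = 80) and of all nuclear ncRNA genes (right bar, n = 7764), as the share of genes in each class of 20 bp (y axis, percent) by length (x axis, bp). Both sets have a median of 140.0 bp. Genes of 400 bp or more, 3.75% of those with a site and 2.15% of all, are not drawn.

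Summits lay mostly inside these genes. Measured from the annotated start along the direction of the gene, the median position of the summit was 30.5 bp (quartiles -18.2 and 61 bp, range -91 to 97 bp). The summit lay downstream of the start at 55 genes and upstream at 25, and it lay within the gene at 52 of the 80 (65%, exact 95% interval 53.5 to 75.3%). At the 252 tRNA genes with a site the median position was 20 bp (quartiles 8 and 33 bp). At the 58 snoRNA genes it was -45 bp (quartiles -54.5 and -34 bp), upstream of the start. The ncRNA genes thus had a wider spread of positions than either class, as the plot of summit positions shows. The summits called in the replicates lay a median of 31.5 bp apart at the 70 sites, against 17 bp at tRNA gene sites and 9 bp at snoRNA gene sites. This gap was not particular to the 70 sites. It was 22.5 bp at sites at protein-coding starts, 38.5 bp at snRNA gene sites and 30.5 bp at the other sites. The part of the gap in the spread of positions was not tested.

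**Figure D2:**
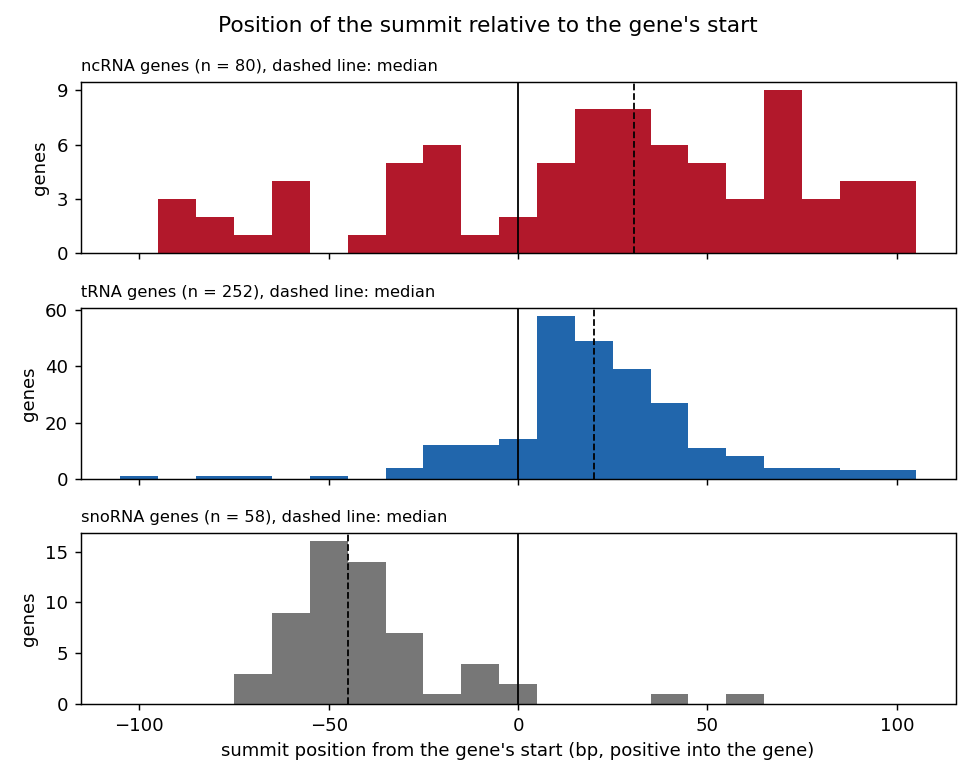
Position of the summit relative to the gene's start (x axis, bp, positive into the gene) for ncRNA genes (top, n = 80), tRNA genes (middle, n = 252) and snoRNA genes (bottom, n = 58), as numbers of genes in classes of 10 bp. Dashed lines mark the medians at 30.5, 20 and -45 bp.

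Around the limit of the rule, 12 of the genes had a summit 81 to 97 bp from the start, with a median signal of 91 and a range of 8.2 to 332. Beyond it, 12 further ncRNA genes had one at 102 to 119 bp, with a median signal of 81.8 and a range of 73.3 to 127. T09B4.21, inside with 87 bp and a signal of 8.2, also had a second site at 117 bp with a signal of 123. The nearest inside were F44A2.13 (97 bp, signal 86.9), R08E3.5 (96 bp, signal 81.2), F56F3.10 (95 bp, signal 95) and F22D3.7 (95 bp, signal 81.9). The nearest outside were F33A8.11 (102 bp, signal 75) and C14F5.11 (103 bp, signal 127), and the site near C14F5.11 is that of C14F5.10, which is inside with 89 bp. F44A2.13 covers the same place as srpr-3, a gene left out by name.

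The peak signal is the authors' own value per peak, on a scale that is not stated, so it only ranks peaks of the same list. Over the 70 sites it had a median of 91.3 (quartiles 76.8 and 113, range 6.52 to 590.3). The medians were 169.6 at 250 tRNA gene sites, 313 at 57 snoRNA gene sites, 146 at 10 snRNA gene sites, 93 at 85 sites at protein-coding starts and 85.6 at the 739 other sites. Typical ncRNA gene sites thus ranked with sites at protein-coding starts and elsewhere, below those of the named small RNA classes. Of the 70 sites, 31 (44.3%) lay above 94.6, the median of all 1211 sites, and 4 were among the 100 strongest of the list.

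**Figure D3:**
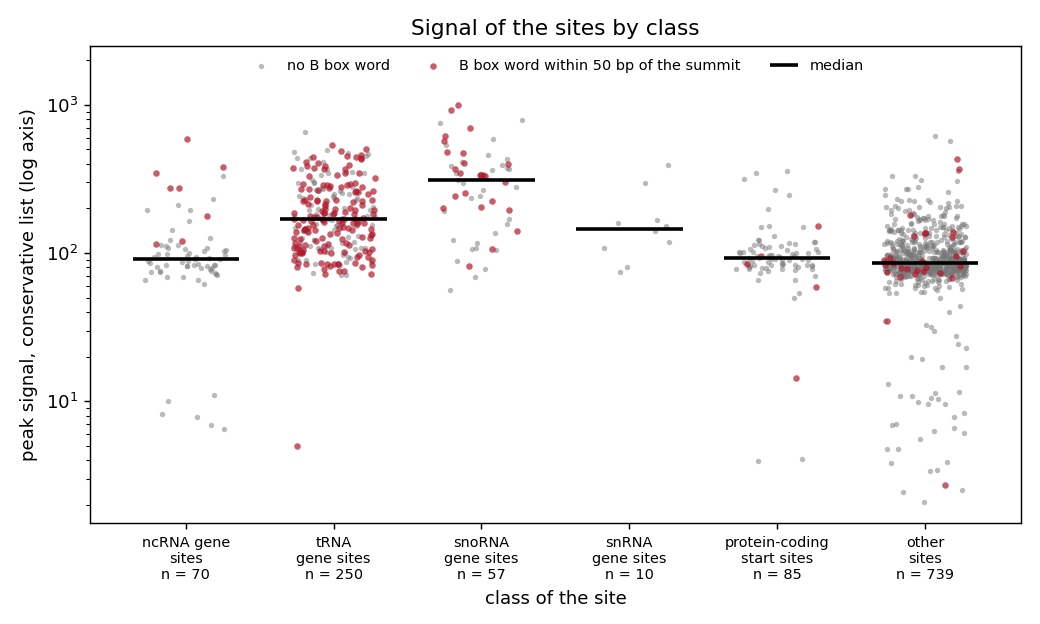
Peak signal in the conservative list (y axis, log scale) by class of site, ncRNA gene sites first, with a point for each site and a bar at the median. Dark red points have a B box word within 50 bp of the summit, and these include 4 of the 5 strongest ncRNA gene sites. The 6 ncRNA gene sites near the bottom, with signals of 6.52 to 11, each overlap a stronger site.

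The 6 weakest sites stand apart. T25C12.7 (signal 11), T24B8.22 (9.97), T09B4.21 (8.2), T06H11.18 (7.82), F16A11.5 (6.91) and R09H10.11 (6.52) each overlapped a stronger site of the list whose summit lay 200 to 204 bp away, with a signal between 74 and 257. The replicate peaks that overlapped these 6 sites had summits 60 to 205 bp away, so replicate values given for them may be those of the stronger neighbour. For T06H11.18 that neighbour was the site of a tRNA gene, with a signal of 257. The other 64 sites overlapped no stronger site and had signals of 62 to 590.3 with a median of 94.4. Their replicate summits lay a median of 12 bp (replicate 1) and 16.5 bp (replicate 2) from the series-wide summit. The largest distances were 107 and 186 bp, so some of these replicate values also come from displaced peaks. At the 74 genes of these 64 sites the summit lay downstream of the start at 54 and upstream at 20, and within the gene at 51 (68.9%). Of the 64 sites, 31 (48.4%) lay above the median signal of all sites and 54 (84.4%) had the higher signal in replicate 1.

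Both replicates showed the strongest sites. In the series-wide list F36H1.17 had a signal of 590.3, rank 9 of 1211. In the replicates' own ranked lists it had 341 in replicate 1 and 239 in replicate 2. It is an 89 bp gene between protein-coding genes, at chrIV:11026131-11026219 on the minus strand, with the summit 20 bp inside it. No small RNA gene start lay within 56948 bp of that summit.

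T28D6.10, T28D6.13 and T28D6.15 shared the next strongest site, with a signal of 378, and of 202 in replicate 1 and 169.5 in replicate 2. They lie within an intron of tba-7, an alpha tubulin gene, and the summit was 324 bp from the start of tba-7. T28D6.10 and T28D6.15 are on the strand of tba-7 and T28D6.13 is on the other. C14F11.14 followed with a signal of 347, and with 197 and 143 in replicates 1 and 2. It is 147 bp long, and its summit was 34 bp inside the gene and 182 bp from the start of T13C5.6.

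WBGene00199919, a gene named after the clone Y37A1B, had a signal of 332, with 188 in replicate 1 and 125 in replicate 2. It overlaps the miRNA gene cel-mir-52, and its summit lay 85 bp into the gene, near the limit of the rule. K10H10.11 had a signal of 274, with 154 in replicate 1 and 113 in replicate 2 and the summit 60 bp upstream of the annotated start. ZK816.8 and ZK816.9, which overlap on opposite strands, shared a site with a signal of 274, and with 145 and 133 in replicates 1 and 2.

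R12E2.18 had a signal of 231, with 139.5 in replicate 1 and 81.7 in replicate 2. It overlaps sls-2.4, annotated as a snRNA gene, whose start lay 103 bp from the summit, just beyond the distance that would have left the site out. F57B10.17 had a signal of 211, with 116 and 92.5 in replicates 1 and 2. Its summit lay 49 bp from the start of tre-1, a trehalase gene, so this site is at a protein-coding start as well.

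W01D2.9 and F08G2.13 had signals of 195 and 194. W01D2.9 had 97.5 in replicate 1 and 96.3 in replicate 2, and F08G2.13 had 123 and 89.2. T22B2.9 and T22B2.12 shared a site with a signal of 179, and with 102 and 77.8 in replicates 1 and 2. Among the 15 strongest sites the replicates were furthest apart, as a ratio, at F52D10.7. Its signal of 165 stood beside 126 in replicate 1 and 47.6 in replicate 2. Each replicate's list has its own scale, so the ratio only orders these sites. The replicate summits of F52D10.7 lay 41 bp to one side and 35 bp to the other of the series-wide summit. Those of C14F5.10 were further apart, 107 bp to one side and 54 bp to the other, and its series-wide summit lay 89 bp from the start. The last of the 15 strongest sites were F31F7.6 (signal 144, with 93 and 51.8 in replicates 1 and 2), C14F5.10 (signal 127, with 75 and 59.8) and C17G1.9 (signal 122, with 77.3 and 46).

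**Figure D4:**
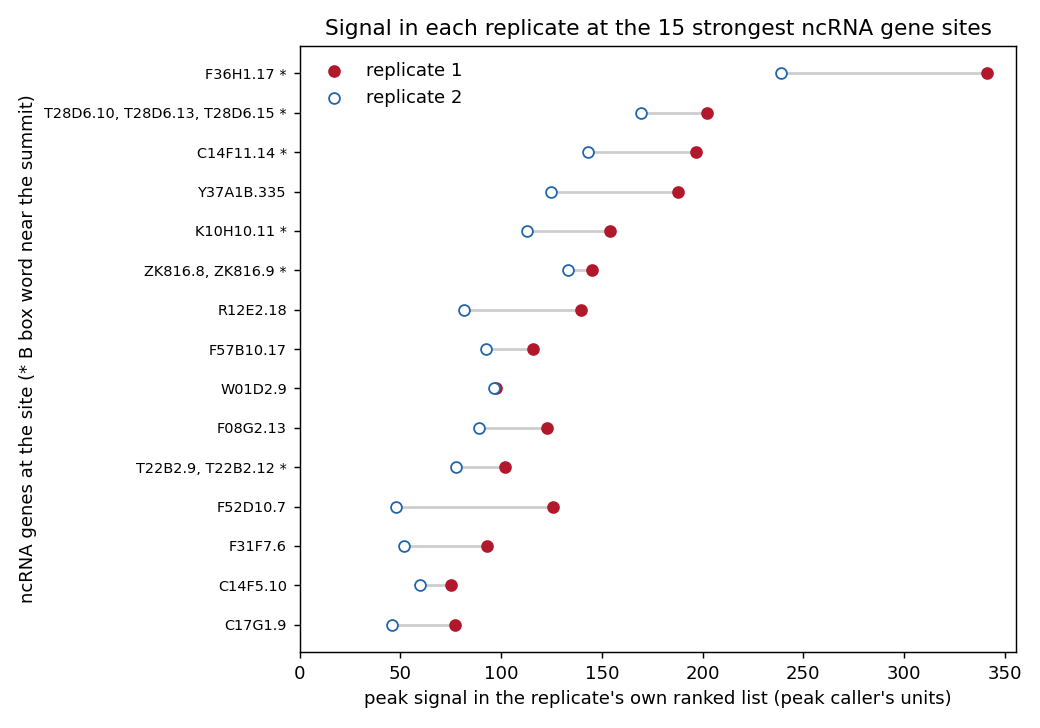
Peak signal in each replicate's own ranked list (x axis, peak caller's units) at the 15 strongest ncRNA gene sites, ordered by their signal in the series-wide list (y axis, genes at the site). Filled points are replicate 1 and open points replicate 2, which was the lower at all 15 sites, and asterisks mark sites with the B box word.

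Over the 70 sites the median signal was 49.5 in replicate 1 (range 36.3 to 341) and 42.5 in replicate 2 (range 27.2 to 239). Replicate 1 had the higher value at 59 of the 70 sites (84.3%), and likewise at 990 of the 1196 sites of the whole list with a value in each replicate (82.8%). All 70 sites overlapped a candidate in the ranked list of each replicate, as did 1196 of all 1211 sites. The sites were chosen for recurring in these replicates, and the ranked lists hold 73127 and 56862 candidates. That overlap is therefore no separate support. In the stricter lists called from each replicate alone, 18 of the 70 sites (25.7%, exact 95% interval 16 to 37.6%) were found in both, 15 in 1 and 37 in neither, against 30.8% of all 1211 sites in both. Without the 6 sites that overlap a stronger one, 16 of 64 (25%) were in both. The share in both lists was 66.8% at tRNA gene sites, 80.7% at snoRNA gene sites, 15.3% at sites at protein-coding starts and 16.6% at the other sites.

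The sites in both lists were the 14 strongest named above, from F36H1.17 to C14F5.10, and those of Y65B4BR.10 (signal 113, with 63.7 and 53 in replicates 1 and 2), K04G2.14 (signal 104, with 57.7 and 46.2), T09B4.21 and T06H11.18. The last 2 are among the 6 sites that overlap a stronger one. Of the 70 sites, 54 (77.1%) overlapped a peak of the second series-wide list, called the optimal list here. The share over all 1211 sites is not given here, so this count does not set the 70 sites apart.

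The next comparison concerned protein-coding promoters, taken to reach from 1000 bp before an annotated start to 200 bp after it. The summit lay in such a window at 39 of the 80 genes (48.8%, exact 95% interval 37.4 to 60.2%) and at 35 of the 70 sites. Of the 894 sites more than 100 bp from small RNA gene starts, 43.5% lay in such a window, so the ncRNA gene sites were near the share of all such sites. Among all 1211 sites the share was 38.9%. Seen from the genes, the starts of 38 of the 80 (47.5%, interval 36.2 to 59%) lay in a promoter window, against 2302 of all 7764 ncRNA gene starts (29.6%, interval 28.6 to 30.7%). Sites as a whole were also often in such windows, and the 80 genes were chosen for having a site.

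At 21 of the 39 genes with the summit in a promoter window, the nearest protein-coding start was on the opposite strand, and at 18 it was on the same strand. At 5 sites a protein-coding start lay within 100 bp of the summit, so that binding at the ncRNA gene and at the protein-coding gene cannot be told apart. These were C24G6.10 (10 bp from the start of the nuclear receptor gene nhr-47), F38B6.21 (21 bp from acr-2, an acetylcholine receptor subunit), F17C8.10 (28 bp from acy-1, an adenylyl cyclase), F57B10.17 (49 bp from tre-1) and C07A12.19 (60 bp from pdi-2, a protein disulfide isomerase). Their signals were 83.4, 73.3, 78.8, 211 and 97.2 in that order.

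Further sites lay in the promoter windows of well studied genes. The summit at W06B11.7 (signal 106) lay 286 bp from the start of puf-9, an RNA-binding protein gene, and that at F09E5.22 (signal 68.4) lay 200 bp from pkc-3, an atypical protein kinase C gene. The summit shared by F53B3.10 and F53B3.12 (signal 88.6) lay 360 bp from vang-1, a planar cell polarity gene. That of F56F3.10 and F56F3.11 (signal 95) lay 247 bp from rps-1, a ribosomal protein gene, and in the window of ifet-1 as well. These genes were picked from the list after their values were seen.

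Fewer of the 80 genes lay inside a protein-coding gene than among ncRNA genes at large. A host gene enclosed 24 of the 80 (30%, exact 95% interval 20.3 to 41.3%), against 3393 of 7764 (43.7%, interval 42.6 to 44.8%). The host was on the same strand for 6 genes (7.5%, against 14.3%), and every host was on the opposite strand for 18 (22.5%, against 29.4%). The intervals for each strand taken alone (2.8 to 15.6% and 13.9 to 33.2%) hold the shares of all ncRNA genes. The intervals cover counting only and are no test, since genes share sites and were chosen for having a site. The share of all sites that lie inside protein-coding genes is not given here. The part of the general placement of sites in the lower host share was not tested. By place of the summit, 50 of the 70 sites lay between protein-coding genes, 17 in an intron, 2 in a UTR exon and 1 in a coding exon.

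The genes with a host on the same strand were T28D6.10 and T28D6.15 in tba-7, lfor-1 in sre-13, K08A8.9 in sox-2, the minus-strand gene of the F22D3.7 pair in F22D3.4, and Y67D8A.7 in Y67D8A.2. K08A8.5 and K08A8.9 cover nearly the same bases on opposite strands in sox-2, which encodes a SOX family transcription factor, and shared a summit 153 bp from its start with a signal of 82.8. On the opposite strand of their host lay, among others, F55A8.4 (signal 94.4) in egl-18, a GATA factor gene, F48C1.13 (signal 65.9) in let-526, and C17G1.9 in tsp-21, a tetraspanin gene. The coding exon site was that of W01B6.15 (signal 85.2), which lies on the opposite strand of the collagen gene col-2.

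**Figure D5:**
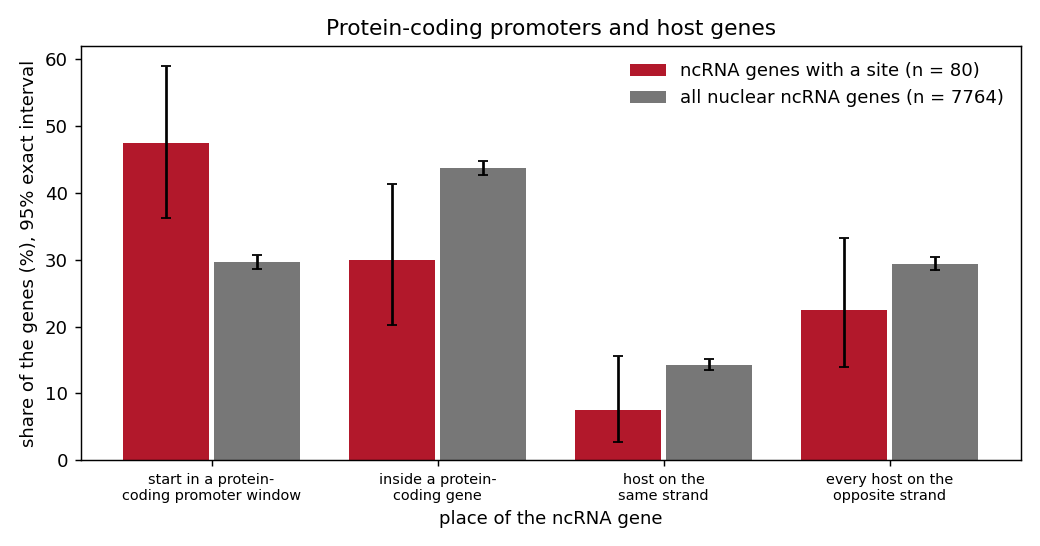
Share of genes (y axis, percent) with the start in a protein-coding promoter window, inside a protein-coding gene, and inside one on the same or only on the opposite strand, for ncRNA genes with a site (left bar of each pair, n = 80) and all nuclear ncRNA genes (right bar, n = 7764). Error bars are exact 95% intervals, which cover counting only. The shares are 47.5% against 29.6% for promoter windows and 30% against 43.7% for hosts.

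The last comparison concerned sequence near the summit, within 50 bp on either side and on both strands. The B box word GTTCNANNC stands for the letters of the internal B box of tRNA genes. It was found in 587 of the 612 nuclear tRNA genes on the strand of the gene, with its first base a median of 51 bp from the start (quartiles 51 and 52 bp). The A box word TNGNNNAGTGG holds the letters found in at least 75% of the tRNA genes at positions 8 to 18, with N elsewhere. It was found whole in 271 of them, with its first base a median of 7 bp from the start. Each word was chosen after the sequences of the strongest sites had been seen, so the counts at those sites are a description.

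The B box word lay near 8 of the 70 summits (11.4%, exact 95% interval 5.07 to 21.3%), against 63.2% of tRNA gene sites, 43.9% of snoRNA gene sites, 18.5% of all sites and 7.17% of all ncRNA gene starts. The share of all sites includes the tRNA and snoRNA gene sites. At sites at protein-coding starts the share was 5.88% and at the 739 other sites it was 3.79%, both within the interval or below it. It was concentrated at the strongest ncRNA gene sites, with 4 of the 5 strongest, 5 of the 10 strongest and 8 of the 20 strongest. The 8 sites had a median signal of 274 (range 116 to 590.3), and the other 62 had a median of 86 (range 6.52 to 332), so the ranges overlap. In replicate 1 the medians were 149.5 and 48.8, and in replicate 2 they were 123 and 41.1, for sites with and without the word. In the lists called from each replicate alone, 6 of the 8 sites with the word and 12 of the 62 without it were found in both. The 12 genes at sites with the word had a median length of 104 bp and the other 68 a median of 142 bp.

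Beside the 6 printed, the sites with the word were those of Y40A1A.6 (signal 120) and lfor-1 (signal 116). In the printed sequences the word lay downstream of the summit in the orientation shown, by 17 bp at ZK816.8 and ZK816.9 and by up to 36 bp at F36H1.17. Its place relative to the annotated start differed. On the strand of the gene it began 56 bp from the start of F36H1.17, 59 bp from that of T28D6.15, 65 bp from that of C14F11.14, 50 bp from that of ZK816.9 and 35 bp from that of T22B2.12. It began upstream of the annotated start of K10H10.11, by 30 bp, and of T28D6.10, by 6 bp.

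The A box word lay near 3 of the 70 summits (4.29%), against 43.6% of tRNA gene sites, 33.3% of snoRNA gene sites, 13.8% of all sites and 1.13% of all ncRNA gene starts. Here too the share of all sites includes the tRNA and snoRNA gene sites. All 3 summits with the A box word also had the B box word. In ZK816.9 the A box word began 6 bp and the B box word 50 bp after the start. In T28D6.15 they began 15 bp and 59 bp after it, while in T28D6.10, which shares the site and the strand, they began 50 bp and 6 bp before it. In T22B2.12 the A box word began 7 bp before the annotated start. No tRNA gene is annotated at these places, and the small RNA gene start nearest to the summit was 23415 bp away for ZK816.9, 17836 bp for T28D6.15 and 55043 bp for T22B2.12.

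The printed X chromosome sites of ZK816.8, T22B2.9 and C14F11.14 were near copies of each other. The windows of ZK816.8 and T22B2.9 aligned with 104 identical bases in 116 columns (89.7%) and shared an unbroken run of 39 bases. That of C14F11.14 matched either with 76 identical bases in 86 columns (88.4%), with unbroken runs of 33 and 36 bases. The run of 39 bases and that of 36 occurred at 2 places each in the nuclear genome and the run of 33 at 3, all inside ncRNA genes and within sites of the list, and none inside a tRNA gene. Shorter stretches were more repeated. Within 50 bp of each of these summits, the most repeated 30-base word occurred at 4 places in the nuclear genome. Reads from such stretches can map to more than 1 place, and how the authors treated them is not given in the sources used here, so the part of this in their signal was not tested. Across the 70 sites, 9 (12.9%) held a 30-base word found elsewhere in the genome, against 242 of 250 tRNA gene sites (96.8%) and 10 of 10 snRNA gene sites. The share was 14.1% at sites at protein-coding starts, 28.7% at the other sites and 1.75% at snoRNA gene sites. Among the 8 ncRNA gene sites with the B box word, 5 held such a repeated word, and 3 did not.

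W01D2.9 and F08G2.13, both on chromosome II, resembled each other in another way. The run AGTATATATAC began 33 bp upstream of the start of each gene. The run TATGGGTTATC began 19 bp after the start of W01D2.9 and 21 bp after that of F08G2.13. Within 50 bp of the start, the first run was found at 5 and the second at 3 of the 7764 ncRNA genes. Within 100 bp of the summit, each was found at 2 of the 1211 sites, these 2, and at none of the tRNA or snoRNA gene sites. The series-wide summit lay 24 bp upstream of the start of W01D2.9 and 23 bp downstream of that of F08G2.13. The replicates did not keep these opposite sides. At W01D2.9 the summits of replicates 1 and 2 were shifted by 40 and 11 bp, and at F08G2.13 by 1 and 26 bp. Both genes thus had the summit downstream of the start in replicate 1 and upstream of it in replicate 2.

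Of the other short words searched, the E-box CAGGTG, the sequence that Snail relatives bind, lay near 2 of the 70 summits (2.86%), against 3.47% of all sites and 2.51% of all ncRNA gene starts. Within 100 bp it lay near 6 (8.57%), against 6.11% and 5.15%, so the order relative to all sites turned with the width of the window. The related CAAGTG lay near 8.57%, against 7.1% and 5.27%. Of the GC-rich words, GGGCGG lay near 14 of the 70 summits (20%, interval 11.4 to 31.3%), against 9.91% of all sites and 3.74% of all ncRNA gene starts. GCGCGC lay near 12 (17.1%, interval 9.18 to 28%), against 7.93% and 1.84%, beside 0 of 250 tRNA gene sites and 8 of 57 snoRNA gene sites (14%, interval 6.26 to 25.8%).

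GAGAGA lay near 14 of the 70 summits (20%), against 13.7% of all sites and 12.1% of all ncRNA gene starts, and the GC-rich GCGCAC near 10%, against 10.2% and 2.65%, beside 21.1% of snoRNA gene sites. TATAAA was found at 1.43%, against 3.72% and 7.62%, and TGATGA at 7.14%, against 4.54% and 8.81%. GTTCGA, which overlaps the B box word, was found at 5.71%, against 15.3% and 6.48%. All sites include the tRNA gene sites, where GTTCGA was found at 53.2%. Over the 64 sites that overlap no stronger one, CAAGTG lay near 5 and GAGAGA near 13, and the counts of the other words were the same as over the 70. The windows also differed in base composition, with a median GC content of 53.5% within 50 bp of the 70 summits, against 51.5% at all sites and 40.6% at all ncRNA gene starts. The part of base composition in the counts of these words was not tested.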

How the data were processed

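ChIP-seq peak lists from 2 biological replicates of 1 group were analysed, as deposited in ce11 coordinates per the labels. The authors' peak caller gave every deposited peak a signal, on a scale that is not stated. A deposited ranked list of candidates also holds a -log10 rate of irreproducible discovery (IDR) for the pair of replicates. Aligner, caller and depth: not given in the sources used here. Sites were the 1211 peaks of the conservative list, of 101059 candidates, and all have an IDR of at most 0.00999. Replicate values came from the nearest overlapping peak in each replicate's own ranked list. A further 16 columns of matched-peak values, which carry no replicate name, were not used.

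Genes were those of Ensembl release 115 (WBcel235), sequences and RNA descriptions those of RefSeq. The summit was column 2 plus column 10 plus 1, in 1-based positions. Shares have exact (Clopper-Pearson) 95% intervals, which cover counting only, since sites and genes are not replicates. No test was made, as there is 1 group and binding chose the genes. Members and lists were chosen with earlier results of these data known. Genes named in full are the 15 strongest sites, the shortest and longest genes, sites in both replicates' lists and those nearest the distance limit; all others were picked after their values were seen. Python 3.11.15, numpy 2.4.6, pandas 2.3.3 and scipy 1.17.1 were used.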

Additional observations from a re-analysis of the deposited data

How the results depend on the processing

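The number of genes depended on the list and the distance. It was 195 at an IDR of at most 0.05 and 19 at 0.001, 46 with a summit within 50 bp and 127 within 200 bp. The lists called from 1 replicate alone gave 27 to 34 genes, 25 of them among the 80 for each replicate. The optimal list gave 69 genes, 59 of them among the 80, and reducing overlapping peaks to the strongest gave 74, with 50% in promoter windows and 27% inside a host. The median signal was 70.3 at an IDR of 0.05 and 231 at 0.001, where the median length was 103 bp. The cause of these differences was not tested. The share in promoter windows was 27.5% with a window of 500 bp upstream to 100 bp downstream, and the share inside a host was 7.5% for hosts on the same strand, both narrower by construction. With 100 bp either side of the summit, GAGAGA was found at 34.3%. With that window CAGGTG was found at 8.57% of the sites, against 6.11% of all sites, GCGCAC at 15.7%, against 14.2%, and GTTCGA at 11.4%, against 10.4% of all ncRNA gene starts, each above its comparison and each below it within 50 bp. The other 62 values of the alternatives, these included, stayed inside the 95% interval of the reported value or, for counts of genes, within 1.5 times of it, and the intervals of the words are wide. Counting each site once, leaving out 1 from the summit position, the A and B box words, the shared runs and the values without overlapping sites were added after the data were seen. The median signal was not computed for 1 replicate alone, whose list has its own scale. No paired analysis was possible because there is 1 group. Depth is unknown.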
